A study of Homo sapiens with 2 samples.

Results

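The genes NFKBIA, TNFAIP3, BIRC3, CFLAR, TRAF1 and EBI3, known as targets and feedback regulators of NF-kB, were examined for accessible chromatin in GM12878. This line of human B lymphocytes was established by transformation with Epstein-Barr virus. Open DNA was mapped by ATAC-seq, in which a transposase cuts accessible DNA and tags it for sequencing, in 2 untreated cultures of 50000 cells each. The cultures form 1 group and share 1 deposited list of 23612 regions, so there is no second condition, no value per culture and no replicate error. Members were chosen by position, as the listed regions whose midpoint lies within 50 kb of 1 of the 6 gene spans in hg19. The rule took in 32 regions, 10 at CFLAR, 7 each at BIRC3 and TRAF1, 5 at TNFAIP3, 2 at NFKBIA and 1 at EBI3. The gene spans and strands came with this choice of genes and not from the deposited list, and "start" below means the 5′ end of such a span. All region positions are in hg19.

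NF-kB is a family of dimeric transcription factors that IkB proteins hold in the cytoplasm until a signal has them degraded. The freed dimers enter the nucleus and bind short GC-flanked sites, and among the genes they switch on are their own inhibitors, which ends the signal, and genes that protect the cell from death. In B cells transformed by Epstein-Barr virus, the viral membrane protein LMP1 is known to signal to NF-kB without a ligand through TRAF adaptors. The list holds accessibility only. It has no measure of transcription or of bound NF-kB, so the name of the gene group was not tested. The motifs below come from reference sequence, are a description only and do not test it either.

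Of the 6 starts, 4 lay inside a listed region, those of NFKBIA, TNFAIP3, BIRC3 and CFLAR, and the whole stretch from 250 bases before to 50 bases after each of these starts lay inside it. At TRAF1 and EBI3 no region covered the start. The RefSeq promoters of 5 of the genes, on GRCh38.p14, are shown because they hold matches to the NF-kB consensus, which are in capitals. Each runs 5′ to 3′ on the strand of its gene, from 250 bases before the RefSeq start to 50 bases from it. The first 3 belong to genes whose hg19 start was in a listed region, TRAF1 is shown from its second RefSeq start, and EBI3 is the gene with the fewest regions.
NFKBIA (chr14:35404700-35404999, minus strand): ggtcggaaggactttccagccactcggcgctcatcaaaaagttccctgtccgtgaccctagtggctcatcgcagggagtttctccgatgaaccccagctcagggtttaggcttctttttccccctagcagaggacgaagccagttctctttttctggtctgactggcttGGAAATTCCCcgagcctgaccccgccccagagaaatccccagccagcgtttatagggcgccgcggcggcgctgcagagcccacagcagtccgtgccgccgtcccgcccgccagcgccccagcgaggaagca
TNFAIP3 (chr6:137867009-137867308, plus strand): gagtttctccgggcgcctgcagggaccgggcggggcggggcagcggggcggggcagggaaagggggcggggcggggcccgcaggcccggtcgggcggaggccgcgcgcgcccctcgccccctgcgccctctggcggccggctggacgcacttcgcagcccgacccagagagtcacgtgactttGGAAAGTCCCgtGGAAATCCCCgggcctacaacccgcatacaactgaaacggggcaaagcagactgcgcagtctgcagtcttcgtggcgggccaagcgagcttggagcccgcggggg
BIRC3 (chr11:102317234-102317533, plus strand): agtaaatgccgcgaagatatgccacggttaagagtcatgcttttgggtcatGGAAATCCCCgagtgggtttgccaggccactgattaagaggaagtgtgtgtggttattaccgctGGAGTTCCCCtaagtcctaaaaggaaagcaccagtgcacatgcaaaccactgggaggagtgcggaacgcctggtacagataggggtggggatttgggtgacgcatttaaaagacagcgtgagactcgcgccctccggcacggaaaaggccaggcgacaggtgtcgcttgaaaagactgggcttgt
TRAF1, second start (chr9:120926747-120927046, minus strand): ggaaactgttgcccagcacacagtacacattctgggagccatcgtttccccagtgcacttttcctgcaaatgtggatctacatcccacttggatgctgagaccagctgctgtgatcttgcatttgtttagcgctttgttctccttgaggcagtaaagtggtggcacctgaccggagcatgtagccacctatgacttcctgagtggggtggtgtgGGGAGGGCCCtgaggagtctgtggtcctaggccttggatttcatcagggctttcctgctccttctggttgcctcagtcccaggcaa
EBI3 (chr19:4229273-4229572, plus strand): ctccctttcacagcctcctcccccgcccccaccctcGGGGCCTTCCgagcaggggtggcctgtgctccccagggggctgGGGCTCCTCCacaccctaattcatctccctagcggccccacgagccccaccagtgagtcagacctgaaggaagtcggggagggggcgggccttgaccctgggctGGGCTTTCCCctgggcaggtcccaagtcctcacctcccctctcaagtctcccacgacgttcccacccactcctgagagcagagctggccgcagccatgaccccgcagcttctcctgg

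The promoter table has 1 RefSeq start for NFKBIA, TNFAIP3, BIRC3 and EBI3, 3 for TRAF1 and 4 for CFLAR. No position was carried from one build to the other. As a check that both builds speak of the same start, the distance from the outermost RefSeq start to the far end of the gene was set beside the length of the hg19 span. These lengths differed by 8 bases for NFKBIA, 73 for TNFAIP3, 35 for BIRC3, 2 for TRAF1 and 20 for EBI3, but by 9839 bases for CFLAR. The outermost CFLAR start is therefore not tied here to its hg19 start. For the second CFLAR start the difference was 410 bases, still more than for the outermost start of any other gene. No CFLAR promoter is printed. The second TRAF1 start is printed although it was not tied to hg19 either. The far end can also differ between builds, so near-equal lengths do not prove a shared start.

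Matches to the NF-kB consensus, searched by its usual degenerate form on both strands with overlapping matches joined, lay in 7 of the 11 promoters of the 6 genes, against 32.6% of the 35116 promoters in the table. Counting the outermost start of each gene, 5 of the 6 had a match, TRAF1 being the one without. NFKBIA had 1 match, GGAAATTCCC, from 81 to 72 bases before its start. TNFAIP3 had 2 neighbouring matches, GGAAAGTCCC from 67 to 58 and GGAAATCCCC from 55 to 46 bases before its start. BIRC3 also had 2, GGAAATCCCC from 199 to 190 and GGAGTTCCCC from 135 to 126 bases before its start, so the same letters GGAAATCCCC stood in both promoters. At least 2 matches were found in 7.57% of all promoters. Neither these shares over all promoters nor those below were matched for the share of G and C.

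EBI3 had 3 matches, GGGGCCTTCC from 214 to 205, GGGCTCCTCC from 171 to 162 and GGGCTTTCCC from 67 to 58 bases before its start. At least 3 were found in 1.59% of all promoters. The EBI3 promoter thus carried the most matches among the 11, while its start was in no listed region. TRAF1 had no match at its outermost start and 1 at its second, GGGAGGGCCC from 36 to 27 bases before it. Of the 4 CFLAR starts, the first and the third had 1 match each, GGGGAATTCC from 97 to 88 bases before the first and GGAAGTTTCC from 28 to 19 before the third. These are matches of letters and not bound sites.

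The other motifs searched, also on both strands, were TATAAA for the TATA box, CCAAT for the box of that name, GGGCGG for Sp1 factors and TGANTCA for AP-1. NFKBIA was the only gene of the 6 with TATAAA, from 33 to 28 bases before its start on the opposite strand, and 11.5% of all promoters held it. GGGCGG lay in 6 of the 11 promoters, against 45% of all. TNFAIP3 had 4 separate stretches of it, and at least 4 were found in 7.78% of all promoters, while BIRC3 had 0. TGANTCA lay in 2 of the 11, at EBI3 from 118 to 112 bases before the start and at the third of the CFLAR starts, against 7.71% of all promoters. CCAAT was in 0 of the 11 and in 34.6% of all. The share of G and C was 73.7% at TNFAIP3, 71.3% at the outermost TRAF1 start, 68.3% at EBI3, 62.0% at NFKBIA and 53.3% at BIRC3, with a median of 58.7% over all promoters. The GGGCGG match at the first CFLAR start overlapped its NF-kB match by 2 bases.

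**Figure D1:**
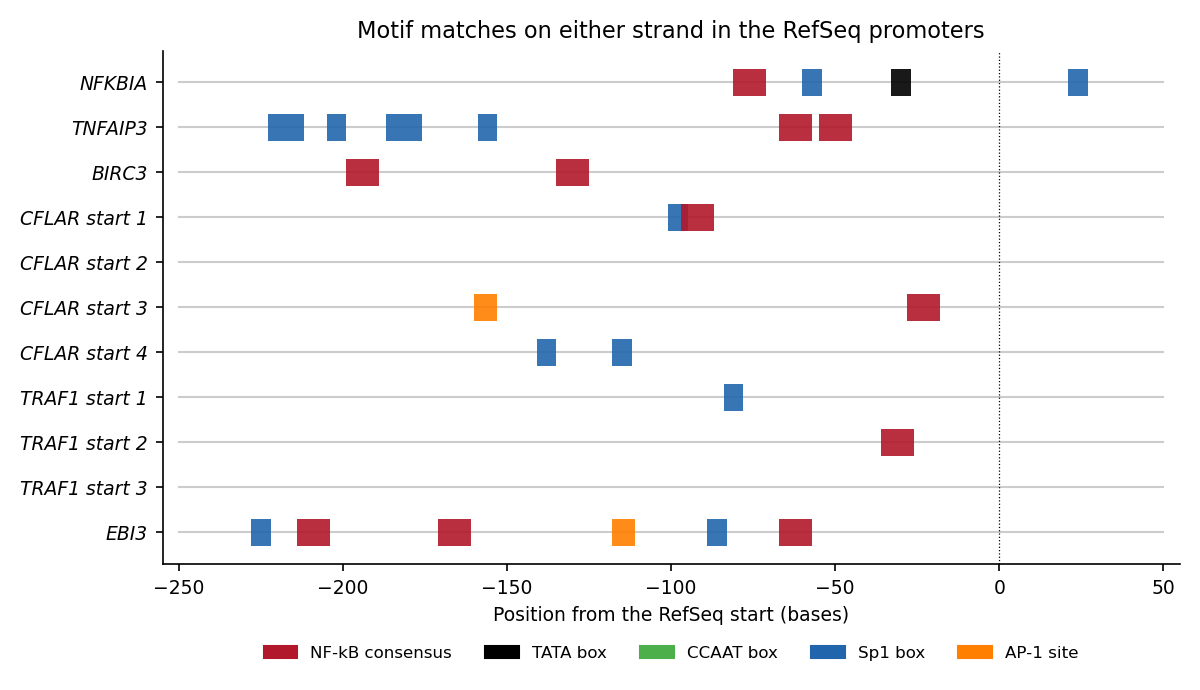
Motif matches in the 11 RefSeq promoters of the 6 genes (rows) by position from the RefSeq start in bases (horizontal axis), with each coloured block 1 match or a stretch of overlapping matches on either strand. The NF-kB consensus is found before the starts of NFKBIA (1), TNFAIP3 (2), BIRC3 (2) and EBI3 (3), at the first and at the third of the CFLAR starts and at the second TRAF1 start, and no CCAAT box is found.

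NFKBIA and TNFAIP3, whose products shut NF-kB signalling off, each had 1 broad region over the start, as did BIRC3 and CFLAR. NFKBIA encodes IkB-alpha, which binds NF-kB dimers and returns them to the cytoplasm. Its start region spanned 1819 bp (chromosome 14, 35872707 to 35874525), from 565 bases before the start to 1253 bases into the gene, and only 4.85% of all listed regions were as wide or wider. The other NFKBIA region, 598 bp wide (chromosome 14, 35885924 to 35886521), lay 12.3 kb upstream of the start. Both had the score of 1000, which is the highest in the list. The authors' score is a whole number that no header explains, runs from 541 to 1000, and is used here only to rank regions within the list. NFKBIA is the shortest of the genes, at 3.25 kb, and nothing was listed within 50 kb past its end.

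TNFAIP3 encodes A20, an enzyme that edits ubiquitin chains on signalling proteins upstream of NF-kB. The region over its start spanned 2162 bp (chromosome 6, 138187311 to 138189472), about evenly from 1014 bases before to 1147 bases after the start, with a score of 1000. Only 2.30% of the list was as wide. The gene body held 2 more regions, of 965 bp (138191832 to 138192796) and 571 bp (138194379 to 138194949), whose near edges lay 3507 and 6054 bases into the gene. Their scores of 720 and 927 were below the highest. An upstream region of 536 bp, with its midpoint 20.1 kb before the start (138167950 to 138168485), had a score of 686. The fifth, of 488 bp at a score of 1000 (138248863 to 138249350), began 44.4 kb past the end of the gene. In RefSeq gene order the long noncoding RNA gene WAKMAR2 overlaps TNFAIP3, so the start region is not assigned to TNFAIP3 alone.

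BIRC3 and CFLAR, whose products protect cells from death, had regions packed closely together from the start into the gene. At TNFAIP3, too, regions followed the start region into the gene, after gaps of 2359 and 1582 bp. BIRC3 encodes cIAP2, a ubiquitin ligase that binds TRAF adaptors and keeps death receptor signals from killing the cell. Its start region of 1522 bp (chromosome 11, 102187371 to 102188892) was followed after a gap of 111 bp by one of 2023 bp (102189004 to 102191026), and both scored 1000. Together they covered 97.0% of a 3.66 kb stretch. A second close pair lay past the end of the gene, of 680 bp at a score of 578 (102216449 to 102217128) and of 1834 bp at a score of 1000 (102217326 to 102219159), with a gap of 197 bp between them. This pair began 6.31 kb and ended 9.02 kb beyond BIRC3, on the side where BIRC2, the gene of the related ligase cIAP1, is the next protein-coding gene in RefSeq order. The start of BIRC2 was not placed in hg19, so this pair is not assigned to BIRC3.

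The 3 remaining BIRC3 regions were narrow, at 381, 444 and 599 bp. The one of 381 bp lay 29.3 kb upstream with a score of 574, and the one of 599 bp lay 48.6 kb upstream with a score of 913. The one of 444 bp began 29.0 kb past the end of the gene, with a score of 1000. Of the 7 regions, 4 had the highest score, against 60.1% of the whole list. Wider than the upper quartile of the list, 1082 bp, were 3, against 25% of the list by definition.

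CFLAR encodes c-FLIP, a relative of caspase-8 without protease activity that blocks caspase activation at death receptors. It had the most regions, 10, of which 7 formed a run from its start into the gene. The run was 14.3 kb long (chromosome 2, 201980470 to 201994750), and its regions covered 60.6% of that length with gaps of 95 to 3267 bp. It opened with the start region of 1436 bp at a score of 1000 (201980470 to 201981905). Next came a region of 768 bp at a score of 886 and, from 2011 to 4185 bases into the gene, one of 2175 bp at 1000 (201982888 to 201985062). The last was the widest of the 32, and only 2.22% of the list was as wide.

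After the longest gap of the run, 4 regions of 1182, 795, 1136 and 1156 bp followed between 7453 and 13873 bases into the gene, with scores of 1000, 806, 970 and 1000. The rest of the gene body, out to its end at 48.1 kb, held 1 more region, of 632 bp at a score of 758. The outer 2 CFLAR regions were one of 941 bp at a score of 1000, 44.4 kb upstream, and one of 381 bp at a score of 589, which began 29.9 kb past the end. How neighbouring regions were joined was not given in the sources used here. With gaps of 95 and 119 bp the first 3 regions of the run may count as 1 or as 3. The same question holds for the BIRC3 pairs, with gaps of 111 and 197 bp. In RefSeq, CFLAR is overlapped by the noncoding RNA genes LOC105373836 and CFLAR-AS1 and by the pseudogenes IMPDH1P10, RNU7-45P and RPL38P5, so its regions are not assigned to CFLAR alone. CASP10, the gene of another relative of caspase-8, is the next protein-coding gene downstream in RefSeq order.

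TRAF1 had no listed region over its start, but regions on both sides of it. All 7 of its regions had the highest score, which 60.1% of the whole list also had. TRAF1 is an adaptor that joins other TRAF proteins and the cIAP ligases at receptors of the TNF family and at LMP1. The nearest region was 1830 bp wide (chromosome 9, 123687844 to 123689673) and lay from 1778 to 3607 bases into the gene. On the other side, a region of 970 bp (123693526 to 123694495) began 2075 bases upstream, so 3852 bp around the start were without a listed region. In GRCh38.p14 the second RefSeq start of TRAF1 lies 2375 bases inside the first. That distance falls between the bounds of the 1830 bp region, but the distances come from different builds and the second start was not placed in hg19.

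Another upstream region of TRAF1 was narrower, at 494 bp, 15.5 kb before the start. Past the end of the gene lay 4 regions, with widths of 1029, 1785, 1207 and 1078 bp in order from the gene. They began 4.77, 8.52, 25.5 and 32.9 kb beyond its end. In RefSeq, TRAF1 is overlapped by PHF19, which encodes a subunit of the Polycomb machinery. On which side it overlaps was not recorded, so the regions in this window are not assigned to TRAF1 alone.

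EBI3 had the fewest regions. It encodes a subunit of the cytokines IL-27 and IL-35 and was first described as a gene induced by Epstein-Barr virus in B cells. The 1 region in its window was 861 bp wide with a score of 1000 (chromosome 19, 4246805 to 4247665). It began 17265 bases from the start and 9.28 kb past the end of the gene, on the side of YJU2, the next protein-coding gene in RefSeq order. The start of YJU2 was not placed in hg19, so this region is not assigned to EBI3. No region was listed over the gene itself or within 50 kb upstream. Because the depth of the libraries is unknown, this is a lack of listed regions and does not show closed chromatin. The name of the deposited list also carries abbreviations that point to a selection by irreproducible discovery rate and to filters for mappability, mitochondrial DNA and a blacklist. No label spells these out, and their part in the unlisted starts of TRAF1 and EBI3 was not tested.

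**Figure D2:**
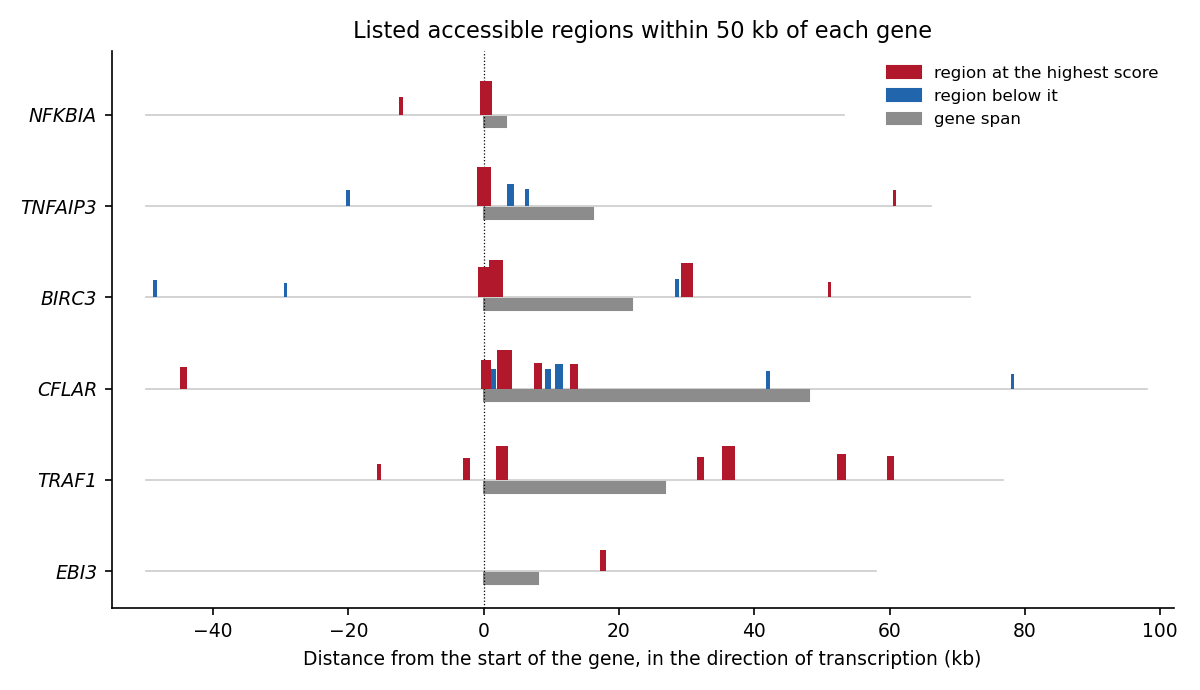
The 32 listed regions near the 6 genes, by distance from the start in the direction of transcription (horizontal axis, kb). Grey bars are gene spans, thin lines the windows of 50 kb on each side, and coloured blocks are regions drawn to scale in length, with height rising with width. Regions crowd at the start of BIRC3 and over the first 14.3 kb of CFLAR, flank the start of TRAF1, and are down to 1 at EBI3.

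Set beside the whole list, the windows around these genes were densely occupied. The 32 regions in 0.724 Mb gave 44.2 per Mb, against 7.72 per Mb over chromosomes 1 to 22 and X, and they covered 4.76% of the bases against 0.682%. Without CFLAR the density was 38.2 per Mb. Single windows ran from 67.5 per Mb at CFLAR, 57.4 at BIRC3, 55.2 at TRAF1, 43.1 at TNFAIP3 and 19.4 at NFKBIA to 9.26 at EBI3. The EBI3 value was close to the 8.85 per Mb of chromosome 19, whereas NFKBIA, the next lowest, stood against 6.47 per Mb on chromosome 14. Within the gene spans there were 14 regions, or 113 per Mb, of which 8 were at CFLAR, and in the flanks 18, or 30.0 per Mb. Without CFLAR the gene spans held 78.8 per Mb and the flanks 32.0. This split goes by midpoint, so the BIRC3 start region, with its midpoint 0.05 kb before the gene, counts in the flanks. Start sites of other genes in hg19 were not used here, so it was not tested whether windows around genes in general are as dense.

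A closer comparison is with windows of the same length centred on every listed region of chromosomes 1 to 22 and X, since these also hold at least 1 region. Of such windows, 3.00% held 10 or more regions at the length of the CFLAR window. For the 7 regions of BIRC3 and of TRAF1 the shares were 8.32% and 8.93%, and for the 5 of TNFAIP3 it was 21.5%. The 2 regions of NFKBIA equalled the median of such windows, 74.8% of which held as many. The 1 region of EBI3 lay under the median of 3. The order of the genes by region count was CFLAR, then BIRC3 and TRAF1 level, then TNFAIP3, NFKBIA and EBI3, and for the first 3 the share of windows with as many regions was 8.93% or lower. With regions at the highest score only, TRAF1 came first with 7, before CFLAR with 5 and BIRC3 with 4, and within 25 kb of the genes BIRC3 had 4, level with TNFAIP3. Joining regions across short gaps was not tried, and it would lower the counts of CFLAR and BIRC3. With 1 list and no value per culture, it could not be tested which neighbours in this order differ.

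**Figure D3:**
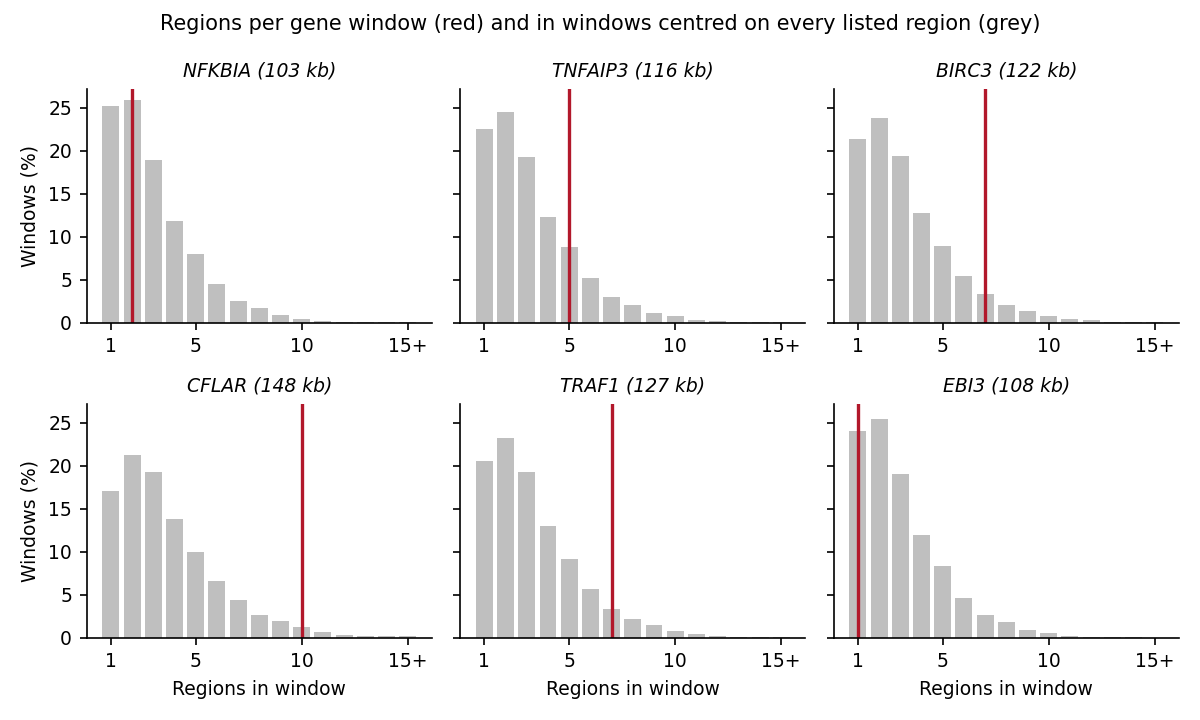
Number of regions per window (horizontal axis) and share of windows in percent (vertical axis), for windows as long as that of each gene and centred on every listed region of chromosomes 1 to 22 and X (grey bars, the last for 15 or more). The red line is the gene's own count, far to the right for CFLAR (10) and at or under the median for NFKBIA (2) and EBI3 (1).

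The regions over starts were all broad, though not the only broad ones. Their widths were 1819 bp at NFKBIA, 2162 bp at TNFAIP3, 1522 bp at BIRC3 and 1436 bp at CFLAR, with a median of 1670.5 bp. At least as wide as the narrowest of these were 9 of the 32 members (28.1%), against 11.5% of the list. Of the 9, 5 did not cover the start of a gene span. The start of BIRC2 and the second RefSeq start of TRAF1 were not placed in hg19. It was therefore not tested whether any of these 5 covered another start. The 28 regions not over the start of a gene span had a median of 901 bp, against 756 bp for all listed regions. By place relative to the gene spans, the medians were 1136 bp for the 11 in gene bodies, 945 bp for the 10 downstream and 598 bp for the 7 upstream. The upstream regions, all between 381 and 970 bp, did not overlap in width with those over starts. Of the whole list, too, only 11.5% reached the narrowest of those over starts. Start sites of other genes in hg19 were not used, so it was not tested whether regions over starts in general are as wide. The gene bodies of CFLAR, BIRC3 and TRAF1 each held a region of 1830 bp or more, and downstream regions of 1834 bp at BIRC3 and 1785 bp at TRAF1 also lay in the range of those over starts.

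Over all 32 members the median width was 967.5 bp, with quartiles at 598.75 and 1457.5 bp, against 547 and 1082 bp for the list. Of the members, 13 (40.6%) were wider than the upper quartile, where 25% of the list is by definition. These were 5 at CFLAR, 3 each at BIRC3 and TRAF1 and 1 each at NFKBIA and TNFAIP3. At least 2000 bp were reached by 3 members (9.38%), 1 each at TNFAIP3, BIRC3 and CFLAR, against 3.31% of the list.

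Scores did not set the members apart as a group. The highest score was held by 21 of 32 (65.6%), against 60.1% of the list. All regions of TRAF1, NFKBIA and EBI3 had it, as did 4 of 7 at BIRC3, 5 of 10 at CFLAR and 2 of 5 at TNFAIP3. All 4 regions over starts had it. Between the places the shares were 8 of 10 downstream, 4 of 7 upstream and 5 of 11 in gene bodies, and 4 of the 6 lower scores in gene bodies were at CFLAR.

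**Figure D4:**
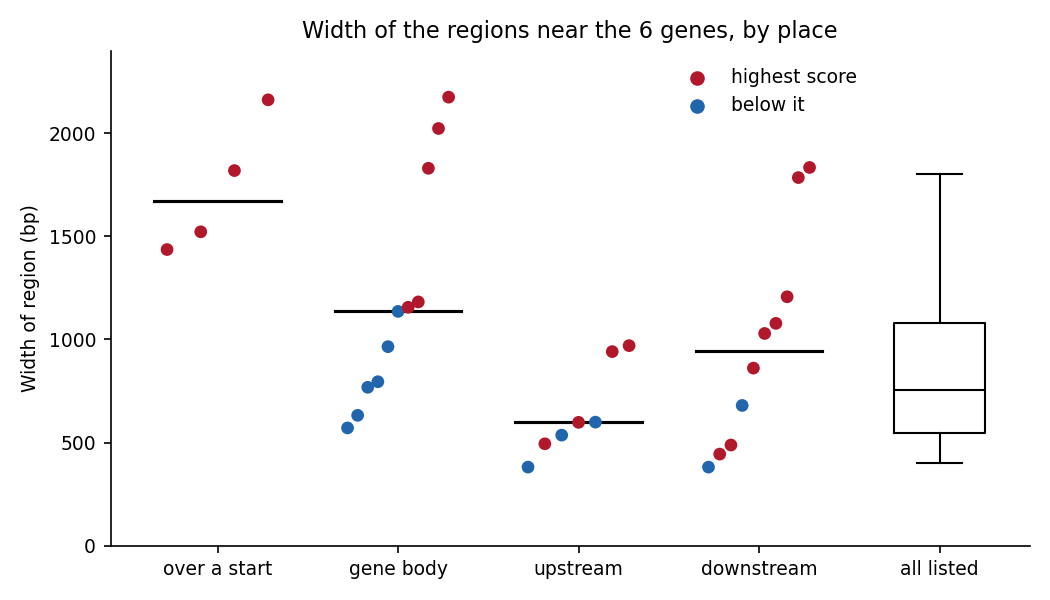
Width in bp (vertical axis) of each of the 32 regions by place relative to its gene, with the median as a bar and the colour giving the score. The box on the right shows all 23612 listed regions, with the median of 756 bp, the quartiles, and whiskers at the 5th and 95th percentiles. The 4 regions over starts lie between 1436 and 2162 bp, above all 7 upstream regions, and 11.5% of the list reaches 1436 bp.

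The members also lay close to one another. The median gap from a member to its nearest listed neighbour was 3.29 kb, against 18.3 kb over the whole list, and without CFLAR it was 4.99 kb. This follows in part from the density given above. A neighbour within 2 kb was present for 13 members (40.6%), against 15.6% of the list. Of these, 7 were the CFLAR run, 4 the close pairs at BIRC3 and 2 the regions in the TNFAIP3 gene body, and NFKBIA, TRAF1 and EBI3 had 0. Without CFLAR, 6 of 22 had such a neighbour. The numbers that the authors gave to the regions ran on without a break in each window, so 0 were skipped there.

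At the edge of the rule, the outermost region inside was that of 599 bp at BIRC3, 48.6 kb from the gene span, with a score of 913. The closest one outside was of 487 bp, also at BIRC3, 51.5 kb from the span, with a score of 645. At the other genes the first region outside lay 55.7 kb (TNFAIP3), 59.3 kb (CFLAR), 59.4 kb (TRAF1), 75.9 kb (NFKBIA) and 91.0 kb (EBI3) from the span.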

How the data were processed

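ATAC-seq libraries from 2 cultures of GM12878 were put in 1 group, per the labels. The authors deposited 1 region list without a header, with start, end and a whole-number score per region. Its name carries abbreviations that point to a selection by irreproducible discovery rate and to mappability, mitochondrial and blacklist filters, which would remove regions and set a floor on the score, but no label explains them. The scale of the deposited score is not named, and the depth of the libraries is unknown. Per the submitters' processing notes, the build was hg19 and the tools included MACS2 2.1.0, bedtools 2.24.0, SAMtools 0.1.19, Picard 1.92, BWA 0.7.13, Trim Galore 0.3.3 and CASAVA 1.8.4, with no roles stated. A shift of reads for the transposase, which can move region edges by a few bases, was not given in the sources used here.

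Earlier results of these data were known when the 6 genes, the 50 kb rule and the analyses were chosen. Regions were assigned by midpoint. With 1 list there were no groups to test, so all comparisons with the list are descriptions. Every region of the 6 windows is described. Named by rule were the region over or nearest each start, the widest and the highest-scoring (ties by width), and the next protein-coding gene on each side (RefSeq, GRCh38.p14, names and order only). Upstream and downstream, these genes were INSM2 and PSMA6 for NFKBIA, OLIG3 and PERP for TNFAIP3, and YAP1 and BIRC2 for BIRC3. They were NDUFB3 and CASP10 for CFLAR, C5 and PSMD5 for TRAF1, and ANKRD24 and YJU2 for EBI3. Other regions with coordinates were added after their values were seen. Chromosome lengths came from circlize 0.4.16 in R 4.3.3. Promoters and motifs came from the RefSeq promoter table on GRCh38.p14, which held all 6 genes. Counting was tested on simulated data. Python 3.11.15 with numpy 2.4.6, pandas 2.3.3 and matplotlib 3.10.9 was used. Alternatives were other distances from the gene (25 and 100 kb), any overlap in place of the midpoint, the highest score only, other background windows, and leaving out CFLAR, which was chosen after seeing the data.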

Additional observations from a re-analysis of the deposited data

How the results depend on the processing

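Of 62 values under alternatives, 15 moved from the reported value by more than 1.5 times, all of them counts, densities or shares of windows. The median width ran from 953 to 1182 bp and the share at the highest score from 64.3% to 72.7%, and with 1 list there is no replicate spread to set these against. The order of the genes by count did change, with TRAF1 first at the highest score only. With the highest score only, 21 regions were left, or 29.0 per Mb and a median of 3 per gene, against 32, 44.2 and 6, by construction of the setting. Within 25 kb there were 24 regions (56.6 per Mb) and within 100 kb 42 (31.7 per Mb), and counting any overlap left 32. The 4 starts in a region stayed 4 within 1 kb of an edge and at the highest score. Of the 12 single-gene values that moved, 6 came from consecutive windows in place of centred ones, many of which hold no region: 0.254% of them held as many regions as CFLAR and 41.9% as many as EBI3. On its own chromosome, TRAF1 was matched by 5.79% of centred windows in place of 8.93%. Leaving out CFLAR was chosen after seeing the data. No paired analysis was possible because both cultures share 1 list, which for the same reason allowed no run without either culture. The unknown depth limits every statement that no region is listed.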

Other observations

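Between 50 and 100 kb from the gene spans lay 10 more regions, 3 at CFLAR, 2 each at TNFAIP3 and BIRC3 and 1 each at NFKBIA, TRAF1 and EBI3. Of these, 8 lay downstream and 2 upstream. The highest score was held by 6 of the 10, close to the 60.1% of the whole list. The widest, of 1504 bp, was at CFLAR, on the side of CASP10 in RefSeq gene order. EBI3 thus had 2 listed regions within 100 kb, both past its end.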
